A study of Mus musculus with 17 samples.

Results

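The 10 genes described here belong to the circadian clock: Per1, Per2, Per3, Cry1, Clock, Nr1d1, Nr1d2, Dbp, Tef and Ciart. They were chosen by name, with earlier results of these data known, and all 10 were found among the 26131 genes counted. RNA had been counted in 284074 single nuclei sorted from the posterior brain of 17 female mice aged 2.3 months, all carrying 2 copies of a knock-in allele that encodes the human transferrin receptor (TfR). Every mouse had been given 4 intravenous doses over 24 days, and the brains were collected 72 hours after dosing ended. Of these mice, 4 received saline and 4 received a free antisense oligonucleotide against the nuclear RNA Malat1 (Malat1 ASO, 2 mg per kg). A further 6 received the oligonucleotide on an antibody to TfR (anti-TfR:Malat1, 50 mg per kg), and 3 received it on a TfR-binding carrier (OTV:Malat1, 50 mg per kg). The authors' table also puts each library in 1 of 4 batches, whose meaning the labels do not state. Batch 1 holds 3 libraries and no OTV:Malat1 animal, batch 2 holds 4, and batches 3 and 4 hold 5 each, with every treatment present. Within batches 3 and 4 the anti-TfR:Malat1 group has 2 animals and every other group 1. The labels number the libraries within each group and are read here as 1 mouse each, so that p-values measure the spread between these libraries. The hour of the day at which brains were collected is not stated in the labels.

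The mammalian clock is a loop of transcription and repression that runs in nearly every cell. The activator CLOCK, paired with BMAL1 (gene Arntl), binds short DNA elements called E-boxes and switches on the Per and Cry genes, whose proteins return to the nucleus and repress it. The same activator drives Nr1d1 and Nr1d2, nuclear receptors that repress Arntl, and the transcription factors Dbp and Tef, which bind another element, the D-box. Ciart encodes a further repressor of CLOCK and BMAL1. Because these genes peak at different times of day, their levels in tissue taken at 1 moment depend on the hour, on light and feeding, and on acute signals such as stress hormones or neuronal activity, to which Per1 responds within minutes to hours.

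The DNA before some of these genes holds letters of the elements named above. RefSeq windows (build GRCm38.p6) were at hand for 9 members, 13 start sites in all, and the 250 bases before each start were searched on both strands. The E-box CACGTG stood in 5 of the 13 windows, belonging to Ciart, Cry1, Per1 and Tef, against 6.02% of 32851 windows of the same length. The D-box TTATGTAA stood at 2 places in the window of Per3 and in 0.819% of all windows. The cyclic AMP element TGACGTCA, present in 1.55% of all windows, and the element TAGGTCA bound by ROR and NR1D proteins, present in 2.23%, were not found in a member's window. No match overlapped a match of another motif. No motif searched was found for Clock, Dbp, Nr1d1 or Nr1d2. Some of the stretches with a match are shown so that the shared letters and their surroundings can be compared. The motif is in capitals, each line reads 5′ to 3′ along the gene's strand, and all lie upstream of the transcription start.
Ciart, chr3:95882322-95882361, minus strand, E-box: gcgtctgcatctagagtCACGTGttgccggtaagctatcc
Cry1, chr10:85185092-85185131, minus strand, E-box: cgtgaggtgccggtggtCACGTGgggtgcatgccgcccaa
Per1, chr11:69098766-69098805, plus strand, E-box: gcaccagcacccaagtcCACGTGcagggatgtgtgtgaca
Tef, chr15:81802529-81802568, plus strand, E-box: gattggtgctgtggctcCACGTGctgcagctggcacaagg
Per3, chr4:151044846-151044887, minus strand, D-box: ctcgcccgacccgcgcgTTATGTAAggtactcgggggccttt
Per3, chr4:151044799-151044840, minus strand, D-box: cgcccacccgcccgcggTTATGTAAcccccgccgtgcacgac
A match is a description of these letters and was not tied to the values that follow.

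Each library held 55393588 to 79866411 unique molecular identifiers (UMIs, counts of captured RNA molecules) from 13841 to 18365 nuclei. Levels are given as CPM, a gene's summed UMIs in an animal scaled to the total of that animal or label. The deposited cell type labels put 193268 nuclei among neurons, 75282 among oligodendrocytes, 8444 among microglia, 4972 among astrocytes, 1226 among vascular cells and 657 among perivascular macrophages. Their own marker lists were the highest of all lists tested in neurons (12532 CPM summed over the list), oligodendrocytes (12728), astrocytes (7437), microglia (4554) and perivascular macrophages (6551). Vascular cells carried endothelial (1405), mural (1489) and fibroblast-like (894) markers together, beside 1370 CPM of neuron markers. Neuron markers in oligodendrocytes stood at 4.5% to 10.7% of their level in the same animal's neurons. This share is a guide to RNA of other cells in a label, and was not separated from doublets or the label's own expression. Each pair of libraries shared 50 to 110 cell barcodes, and no pair stood apart. The neurons of OTV:Malat1 replicate 2 held the most subcortical (Slc17a6 and Tcf7l2, 176 CPM against 103 to 161 elsewhere) and inhibitory (Gad1 and Gad2, 164 against 111 to 150) marker RNA. The Dbp changes of batch 3 are also given without this library. Malat1 took 3.34% to 4.35% of UMIs after OTV:Malat1, 4.64% to 7.22% after anti-TfR:Malat1 and 4.6% to 7.6% after Malat1 ASO. In saline it took 6.85% to 8.09% in replicates 1 to 3 but 4.65% in the library labelled saline replicate 4, which lies in batch 4 and goes against its label. Other batch 4 libraries were low for their group too: Malat1 ASO replicate 4 stood at 4.6% against 6.71% to 7.6% in the other 3 of its group, and OTV:Malat1 replicate 3 at 3.34% against 4.32% and 4.35%. The batch 4 anti-TfR:Malat1 animals, at 5.47% and 5.28%, lay within the 4.64% to 7.22% of the other 4 in their group, the lowest of which is in batch 1. Whether the label of that saline library is right was not tested. The treatment counts, the saline mean of Per1, its OTV:Malat1 change and the main batch 4 changes are therefore given with and without it.

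Per1, the most quickly induced of the repressors, varied most from animal to animal. Over all nuclei of batch 1 saline stood at 33 CPM, Malat1 ASO at 35.4 and anti-TfR:Malat1 at 26.5. In batch 2 the OTV:Malat1 animal was lowest at 17.7, below Malat1 ASO at 26.5, saline at 26.6 and anti-TfR:Malat1 at 31.6. In batch 3 the Malat1 ASO animal was lowest at 11.2, below saline at 17.7, anti-TfR:Malat1 at 23.6 and 31.2, and OTV:Malat1 at 24.5. No treatment was lowest in every batch. In batch 4 the anti-TfR:Malat1 animals were lowest at 13.9 and 17.9, below OTV:Malat1 at 23, Malat1 ASO at 30.8 and the library labelled saline at 37.3. The highest animal was thus 3.32 times the lowest. The lowest lies in batch 3 and the highest in batch 4, and the 4 batch ranges overlap. The edgeR estimate of variation between animals within batches and treatments was 29.8% for Per1, against 9.91% for genes of the same abundance, a ratio of 3. In sums over all nuclei, fewer cells of a type and less RNA per cell cannot be told apart.

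Per2, the partner repressor, ran from 13.4 to 26.6 CPM, and Ciart from 6.01 to 12.4 CPM. Their variation between animals was also above that of genes of like abundance (19.2% against 10.3% for Per2 and 21.1% against 11.9% for Ciart). In batch 4 Per2 stood at 26.6 CPM in the library labelled saline and 26.1 in Malat1 ASO, but at 14.9 and 13.4 in the anti-TfR:Malat1 animals and 19.7 in OTV:Malat1. The same pair of animals was high for Ciart, at 11.9 and 12.4, and the anti-TfR:Malat1 pair low, at 7.3 and 6.01. Batch 4 therefore held the highest and the lowest Per2 and Ciart values of the series at once. Cry1, another member of the repressor complex, ran from 12.4 to 21.1 CPM. It was high in batch 1, with saline at 20.5, Malat1 ASO at 21.1 and anti-TfR:Malat1 at 17.6, and low in batch 3, where 5 animals lay between 12.4 and 15.3.

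Over all nuclei the other 6 genes varied no more than genes of like abundance once batch and treatment were accounted for. Dbp ran from 6.56 to 14.2 CPM, Nr1d1 from 4.85 to 7.86, Nr1d2 from 38.8 to 54.8, Per3 from 36.3 to 51.6, Tef from 79.6 to 100 and Clock from 134 to 154. The ratio of their variation to that of like genes ran from 0.617 times for Tef to 0.912 times for Nr1d2. In its plain range Dbp was not steady, the highest animal being 2.17 times the lowest against 1.98 times for Per2 and 2.06 for Ciart. OTV:Malat1 replicate 2 was the highest library for Dbp, Per3 and Tef. Within labels some of the 6 varied more than like genes. In oligodendrocytes the ratio was 1.34 for Per3 and for Nr1d1 and 1.2 for Dbp, against 0.783 for Nr1d2, 0.791 for Clock and 0.923 for Tef. For Dbp it was 1.43 in astrocytes and in microglia.

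**Figure D1:**
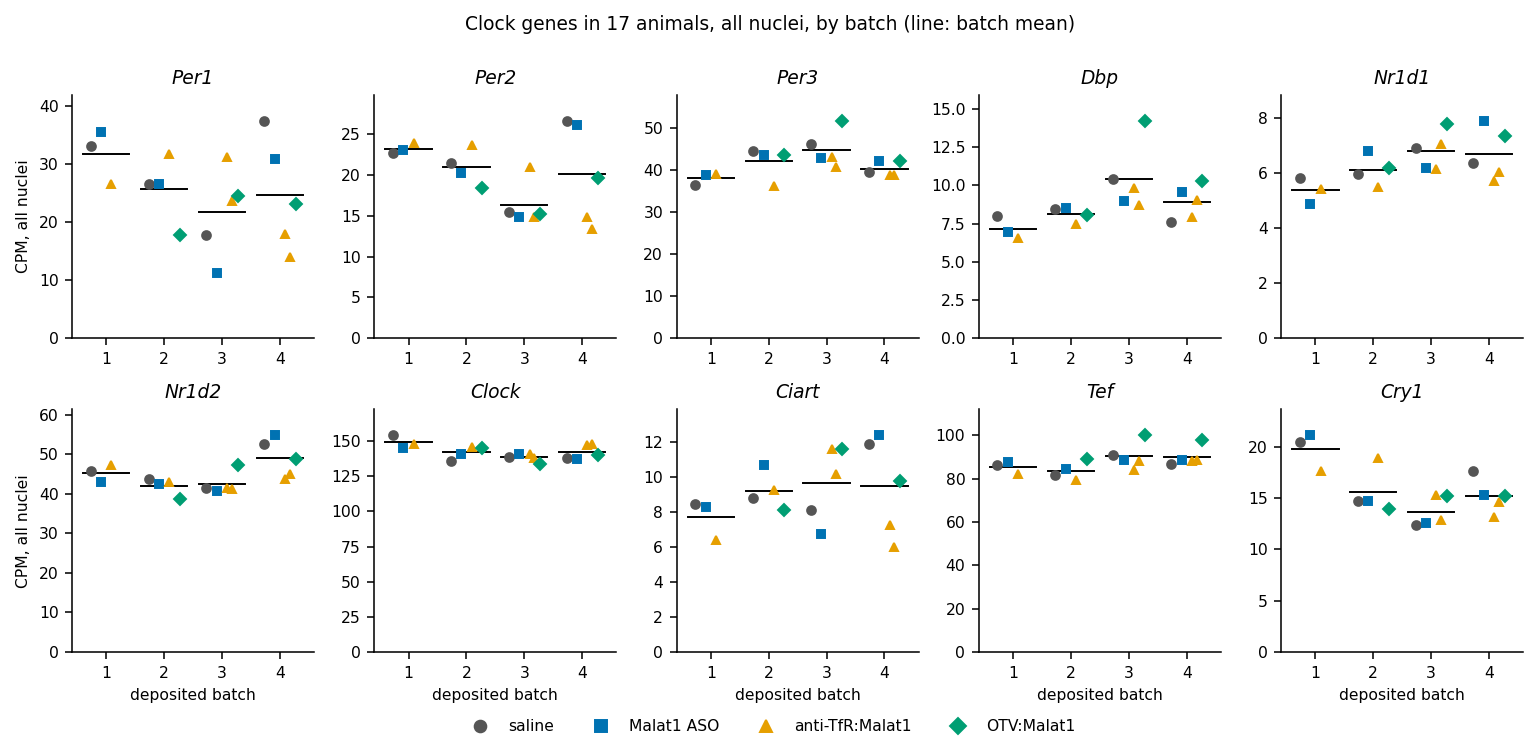
Level of each clock gene in CPM over all nuclei (vertical axes, from 0) in 17 animals, by deposited batch (horizontal axes); symbols mark the treatment and lines the batch mean. Per1 spreads from 11.2 to 37.3 CPM with batches overlapping, while Clock stays between 134 and 154.

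Astrocytes had the highest mean CPM for 7 of the 10 clock genes, though most neighbouring labels overlapped. Per2 stood at 43.3 ± 11.6 CPM (SD, n = 17) in astrocytes and 21.5 ± 4.87 in neurons, and was higher in astrocytes in 17 of 17 animals. Neurons, vascular cells, perivascular macrophages, microglia and oligodendrocytes followed in that order, each within 1 SD of its neighbour. In oligodendrocytes Per2 was 3.72 ± 1.27 CPM, 17.3% of the neuron level, and 7.13% in the lowest animal, which lies within the 4.5% to 10.7% that neuron markers reach there. Nr1d2 was 103 ± 17.4 CPM in astrocytes against 57.7 ± 18.1 in microglia, higher in 17 of 17 animals. Vascular cells had the highest mean, 114 ± 46.9, which overlaps that of astrocytes. Oligodendrocytes (47.3 ± 9.51) and neurons (43.8 ± 4) also overlapped.

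Per3 showed the clearest layering of the repressors. It stood at 130 ± 23.6 CPM in astrocytes, 91.3 ± 28.4 in vascular cells, 43.5 ± 4.02 in neurons, 38.9 ± 23 in perivascular macrophages, 22.2 ± 5.9 in microglia and 18.8 ± 5.1 in oligodendrocytes. The vascular level was above the neuron level in 16 of 17 animals and beyond both SDs, although it rests on 143 UMIs. Dbp was highest in vascular cells (53.1 ± 35.1 CPM, 80 UMIs) and astrocytes (33 ± 14), with overlapping spreads, and stood at 8.56 ± 1.52 in neurons and 8.33 ± 3.43 in oligodendrocytes. Nr1d1 followed the same pattern, at 27.4 ± 8.6 in astrocytes and 26.6 ± 19.5 in vascular cells against 6.36 ± 0.817 in neurons. Tef was 180 ± 34.2 in astrocytes, 99.6 ± 14.6 in oligodendrocytes and 85.8 ± 4.32 in neurons.

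Clock ran the other way round. Its level was highest in oligodendrocytes at 188 ± 12.3 CPM and lowest in astrocytes at 92.2 ± 16.2, below neurons (137 ± 4.75) in 17 of 17 animals. Per1 was 39.3 ± 17.5 in astrocytes, 25.7 ± 8.06 in neurons and 21 ± 8.07 in oligodendrocytes, and neighbouring labels overlapped throughout. Cry1 and Ciart likewise overlapped between neighbours, with 23.6 ± 7.1 and 9.71 ± 5.24 CPM in astrocytes. Npas2, an alternative partner of BMAL1, was 152 CPM in neurons and 3.93 in oligodendrocytes, or 2.58% in the mean and 0.765% to 4.92% in single animals, beside 4.5% to 10.7% for the neuron markers, a range whose lower end the highest animal reaches. In astrocytes Npas2 was higher than in neurons, at 245 CPM, or 161% of the neuron level and 131% to 215% in single animals. On the same scale Per1 in oligodendrocytes was 81.5%, Dbp 97.3% and Nr1d2 108% of the neuron level. In perivascular macrophages Ciart rests on 2 UMIs, Nr1d1 on 3, Cry1 on 4 and Per2 on 5 over all animals, so that their place in the order is not resolved. With nuclei called doublets by the authors left out, all 60 mean levels moved by less than 1 SD.

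**Figure D2:**
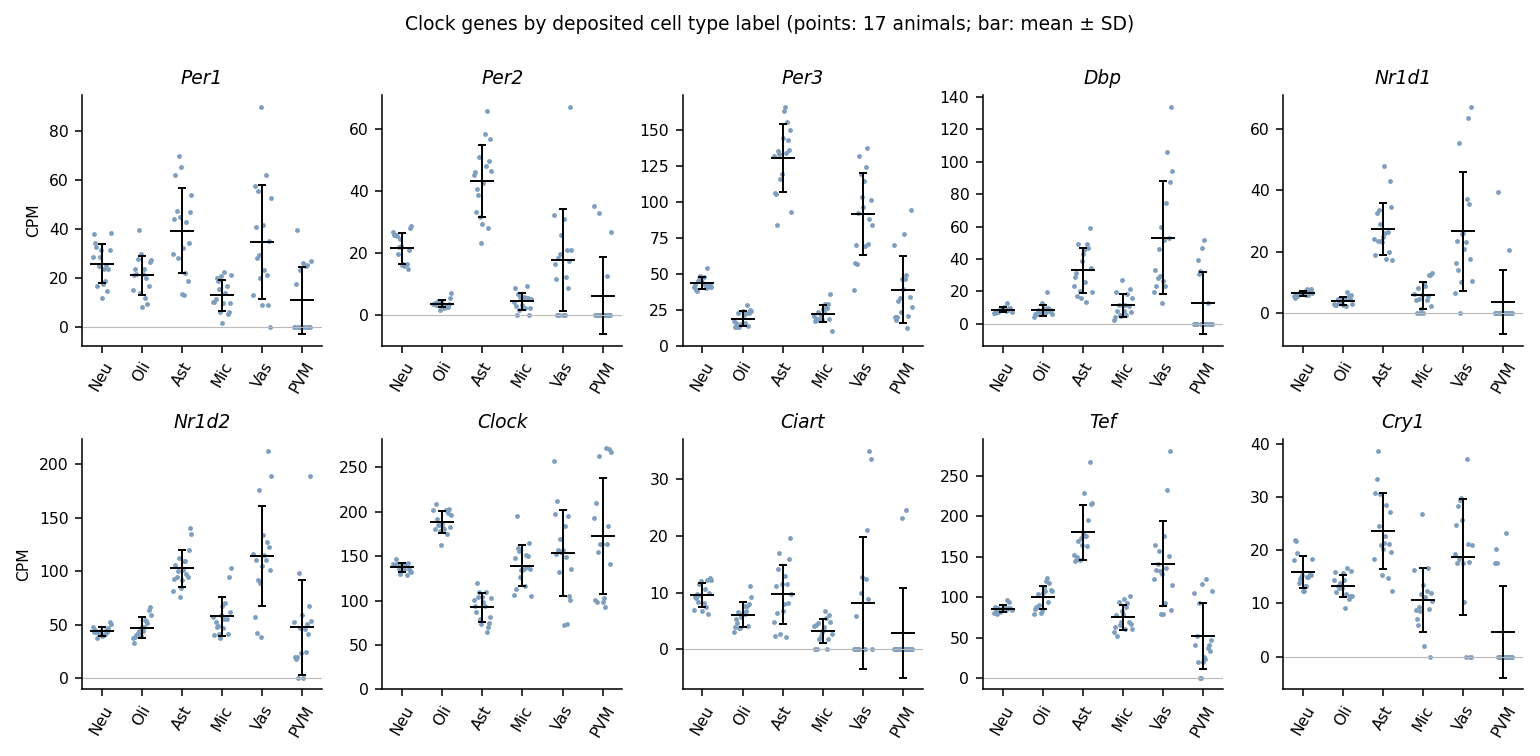
Level of each clock gene in CPM (vertical axes) in 6 deposited labels: neurons (Neu), oligodendrocytes (Oli), astrocytes (Ast), microglia (Mic), vascular cells (Vas) and perivascular macrophages (PVM). Points are 17 animals and bars the mean ± SD; Per3 reaches 130 CPM in astrocytes against 18.8 in oligodendrocytes, and Clock is highest in oligodendrocytes at 188.

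No treatment difference passed the test for any of the 10 clock genes. The comparisons ask whether the oligonucleotide, free or carried, moved the clock, and 0 of 10 members passed an adjusted p of 0.05 in any of the 4 comparisons over all nuclei (edgeR quasi-likelihood test, Benjamini-Hochberg over 21375 genes). The background was 0% of genes called in each of the 4. Malat1 itself, the RNA targeted, was thus not called either, so 0 calls does not show that a level was unchanged. Over all genes DESeq2 called 1, lower in OTV:Malat1 against saline. Before adjustment 1 of the 40 member tests lay under 0.05, Clock in OTV:Malat1 against anti-TfR:Malat1 at −0.15 ± 0.06 (log2 change ± SE, edgeR adjusted p = 0.997). Of all 21375 genes, 345 did so in that comparison. Against saline 129 did so for Malat1 ASO, 258 for anti-TfR:Malat1 and 237 for OTV:Malat1. For the members DESeq2 gave the same 0 calls and 1 such test. Within the 6 labels, 160 member tests gave 0 calls, where 0.00303% of all tests were called, and 10 unadjusted values under 0.05. Genes at large had such values too, but their share over the 6 labels and 4 comparisons together is not given. In OTV:Malat1 against anti-TfR:Malat1 they were 443 of 20906 in neurons, 424 of 14419 in oligodendrocytes and 348 of 8547 in astrocytes. In microglia they were 331 of 9104, in vascular cells 141 of 3312 and in perivascular macrophages 58 of 1418. Some of the member values lay in other comparisons. In OTV:Malat1 against saline genes at large had 374 of 14419 in oligodendrocytes, 345 of 8547 in astrocytes and 170 of 3312 in vascular cells. In anti-TfR:Malat1 against saline they had 271 of 8547 in astrocytes. Whether the members had more such values than genes at large was not tested. Levels show the size of the spread. Per1 was 28.7 ± 8.52 CPM (SD, n = 4) in saline, 26 ± 10.5 (n = 4) after Malat1 ASO, 24.1 ± 7.15 (n = 6) after anti-TfR:Malat1 and 21.7 ± 3.56 (n = 3) after OTV:Malat1. Dbp was 8.61 ± 1.22, 8.5 ± 1.15, 8.26 ± 1.19 and 10.8 ± 3.11 in the same order. All 4 groups overlap for both genes. Without the library labelled saline replicate 4 the saline mean of Per1 was 25.8 ± 7.69 (n = 3).

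The precision of these comparisons differed between members. The model held treatment alone, so that differences between batches stay in these changes and SEs. Batch 1 had the highest mean Per1 (31.6 CPM) and the lowest mean Dbp (7.16) and holds no OTV:Malat1 animal. Treatment and batch are thus partly mixed in the OTV:Malat1 values. In OTV:Malat1 against saline the SE ran from 0.06 for Clock and Tef to 0.33 for Per1, whose change of −0.47 leaves an interval of 2 SE on either side from −1.13 to 0.19. Without the library labelled saline replicate 4 it was −0.30 ± 0.34. On counts simulated for that comparison, 51% of genes given a log2 change of 0.5 and 91% of those given 1 were recovered. Those counts held no differences between batches, and only genes of higher counts were changed. The shares can therefore be too high for the real data. Within batches the direction was mixed: Per1 in anti-TfR:Malat1 against saline was higher in 2 of 4 batches and lower in 2, from −1.19 in batch 4 to 0.59. The batch 4 value is against the library labelled saline replicate 4, and rests on it. Leaving out the library labelled saline replicate 4, or any other library, still gave 0 calls in all 4 comparisons over all nuclei; this was not run within labels.

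Neurons, oligodendrocytes and astrocytes ranked the 5 animals of batch 4 alike for Per1, but over all members and batches such shared orders were no more frequent than over all genes. Within batch 4, Per1 in neurons was 38.3 CPM in the library labelled saline, 31.3 in Malat1 ASO, 23.6 in OTV:Malat1 and 18.5 and 14.5 in anti-TfR:Malat1. In oligodendrocytes the same animals stood at 27.3, 26.5, 16.5, 11.8 and 9.16. In astrocytes they stood at 53.9, 46.9, 34, 21.9 and 18.8. Those astrocyte values rest on 10 to 22 UMIs each, so the order of close animals there was not separable from counting error. The order of the 5 animals was thus the same in all 3 labels. Over 40 orders, 10 genes in 4 batches, this was the 1 case of its kind, and the order of neurons was met in oligodendrocytes in 4 and in astrocytes in 3. Over 11199 genes with a mean of 3 or more CPM in these 3 labels, 14.3% of the orders in the 4 batches were met in oligodendrocytes, 9.23% in astrocytes and 3.29% in both. For batch 4 alone 0.232% of these genes kept 1 order in the 3 labels. Nothing particular to the clock genes is read from these counts. Batch 3 kept its ends: anti-TfR:Malat1 replicate 3 was highest (31.2 in neurons, 29.8 in oligodendrocytes, 65.4 in astrocytes), and Malat1 ASO replicate 3 was lowest in neurons and oligodendrocytes (11.6 and 8.22), with 13.5 in astrocytes beside a lowest of 13. Batches 1 and 2 did not keep the order. In batch 2 oligodendrocyte Per1 was highest in Malat1 ASO replicate 2 at 39.5, whose neurons stood at 24.8, below 2 of the other 3 animals.

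Over all 17 animals, each member's level in neurons was correlated with its level in oligodendrocytes, astrocytes and microglia on log2(CPM + 1), 30 relations in one family tested by permutation. Of these, 4 passed an adjusted p of 0.05, all positive. Dbp between neurons and oligodendrocytes gave Pearson's r = 0.84 (permutation p = 4.0e-05, adjusted p = 0.0012) and Spearman's rho = 0.73 (permutation p = 9.9e-04, adjusted p = 0.016). Without the 2 animals farthest from the median neuron level it was 0.62, and over deviations from batch means 0.68. Tef in the same labels gave r = 0.71 (permutation p = 7.2e-04, adjusted p = 0.0078) and rho = 0.64 (permutation p = 0.00724, adjusted p = 0.0543), with r = 0.64 without the 2 farthest animals and 0.66 within batches. Per1 between neurons and astrocytes gave r = 0.74 (permutation p = 7.8e-04, adjusted p = 0.0078) and rho = 0.74 (permutation p = 0.00107, adjusted p = 0.016), with 0.58 and 0.74 for the other 2 measures. Tef between neurons and microglia gave r = 0.69 (permutation p = 0.0015, adjusted p = 0.0112) and rho = 0.64 (permutation p = 0.00674, adjusted p = 0.0543), with 0.57 and 0.64. On Spearman's measure Dbp and Per1 therefore passed and Tef did not. Per1 in astrocytes rests on 4 UMIs in the lowest animal, with a median of 17, and Tef in microglia on 23, with a median of 39. The labels of an animal also moved together over genes at large. Among genes with a mean of 3 or more CPM in both labels, 10.1% had an r between neurons and oligodendrocytes at or above that of Dbp and 28.6% at or above that of Tef. Between neurons and astrocytes 2.98% reached the r of Per1, and between neurons and microglia 7% reached that of Tef.

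The remaining 26 relations did not pass. Per1 between neurons and oligodendrocytes gave r = 0.58 (permutation p = 0.0164, adjusted p = 0.0821) and rho = 0.39 (permutation p = 0.125, adjusted p = 0.267), and fell to 0.18 without the 2 animals farthest out, so that it rests on them, although over batch deviations it was 0.67. Nr1d2 gave r = 0.44 in the same labels, 0.04 without the 2 farthest and 0.53 over batch deviations. Cry1 gave 0.09 between neurons and oligodendrocytes. The median r of the members was 0.49 with oligodendrocytes, 0.47 with astrocytes and 0.18 with microglia, and over all those genes it was 0.57, 0.26 and 0.27. Microglia of some animals held 0 UMIs of Per2, Nr1d1, Ciart or Cry1, and astrocytes as few as 1 of Ciart, so a low r there was not separable from counting error. Labels of 1 animal share a library, and neuron markers reached 14.8% of the neuron level in microglia and 10.7% in oligodendrocytes. The part of shared RNA in these relations was not tested.

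**Figure D3:**
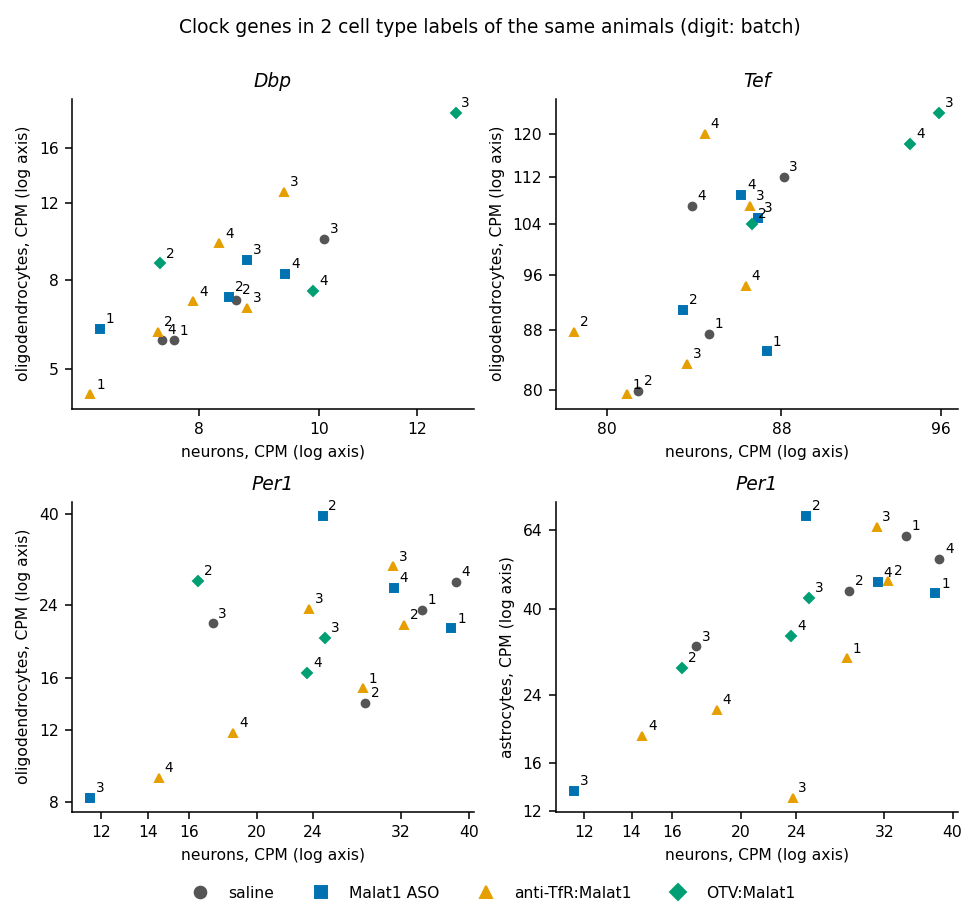
CPM of Dbp, Tef and Per1 in neurons (horizontal, log axis) against oligodendrocytes or astrocytes (vertical, log axis) of the same 17 animals; symbols mark the treatment and digits the batch. Dbp rises together in both labels (r = 0.84), with OTV:Malat1 replicate 2 at the top right, 12.9 against 19.3 CPM.

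Members also moved with each other across animals. These relations were computed after the levels had been seen. In neurons 12 of 45 pairs (26.7%) passed an adjusted p of 0.05, 9 positive and 3 negative, each with an r of at least 0.61 in size. Over all pairs of 13128 genes with a mean of 3 or more CPM in neurons, 12.2% had an r of that size. Per1 went with Per2 (r = 0.83, permutation p = 4.0e-05, adjusted p = 0.0018; rho = 0.84, permutation p = 5.0e-05, adjusted p = 0.00135). Over batch deviations that r was 0.81, and 0.80 without the 2 farthest animals. Per1 also went with Cry1 (r = 0.78, within batches 0.76), Ciart (0.65, within batches 0.91) and Nr1d2 (0.61, within batches 0.70), and Per2 with Cry1 (0.75) and Nr1d2 (0.63). Without the 2 farthest animals the relation of Per1 with Ciart was 0.44, and on Spearman's measure it did not pass (rho = 0.56, permutation p = 0.0214, adjusted p = 0.0643). A second set held Dbp with Nr1d1 (r = 0.80, permutation p = 1.1e-04, adjusted p = 0.00247; rho = 0.84, permutation p = 6.0e-05, adjusted p = 0.00135), Per3 (0.73) and Tef (0.69). Dbp with Tef fell to 0.42 without the 2 farthest animals and did not pass on Spearman's measure (rho = 0.52, permutation p = 0.0338, adjusted p = 0.0895). The activator Clock ran against 3 of them, with r = −0.72 for Nr1d1, −0.70 for Per3 and −0.63 for Dbp (rho −0.79, −0.66 and −0.63). Without the 2 farthest animals those with Per3 and Dbp were −0.49 and −0.45. Over deviations from batch means the 3 were −0.58, −0.70 and −0.46, and those of Dbp with Nr1d1, Per3 and Tef were 0.66, 0.71 and 0.68. Neurons of batch 1 were high for Clock (140 to 147 CPM) and low for Dbp (6.54 to 7.64), and those of batch 3 the reverse (129 to 139 and 8.75 to 12.9). The 12 adjusted permutation p-values for r ran from 0.0018 to 0.0346, and 10 of the 12 pairs also passed on rho.

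In oligodendrocytes 6 of 45 pairs passed, all positive, and they were the 6 pairs among Per3, Nr1d2, Ciart and Tef. They are 13.3% of the pairs, where 3.93% of all pairs of 12255 genes in this label had an r as large in size as the smallest of the 6. Their r lay between 0.67 for Per3 with Nr1d2 and 0.81 for Per3 with Ciart and with Tef. The 6 adjusted permutation p-values ran from 0.00461 to 0.0281, and 5 of the 6 also passed on rho, Per3 with Nr1d2 excepted (0.63, adjusted p = 0.0552). Within batches the 6 r lay between 0.52 and 0.70, and without the 2 farthest animals between 0.61 and 0.80. The pair of Per1 and Per2, the closest in neurons, was not among them, and Per2 in oligodendrocytes rests on 387 UMIs against 20706 in neurons. Whether pairs differ between the labels was not tested, and pairs that share a gene are not independent.

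In batch 4, 1 clock gene of 10 was called over all nuclei, a share near the background. Against the other batches, with treatment in the model, 8.55% of 21375 genes were called. Nr1d2, the repressor of Arntl, stood in batch 4 at 54.8 CPM in Malat1 ASO, 52.6 in the library labelled saline, 48.9 in OTV:Malat1 and 43.7 and 45 in anti-TfR:Malat1, and at 38.8 to 47.4 in the 12 other animals. It was higher by 0.21 ± 0.06 on the log2 scale, or 1.15-fold (edgeR, adjusted p = 0.0437). The ranges overlap. The call was lost in 14 of the 17 fits that each left out 1 library, and held only without anti-TfR:Malat1 replicate 1, 2 or 6. Without the library labelled saline replicate 4 the change was 0.17 (adjusted p = 0.171), and without Malat1 ASO replicate 4 it was 0.14 (0.157). The median change was 0.06 over the members and 0.01 over all genes. Per1 differed by −0.05 ± 0.23, Per2 by 0.04 ± 0.15 and Ciart by 0.12 ± 0.16, none past the test, and by −0.27, −0.10 and −0.01 without that saline library.

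By label, the shift of Nr1d2 passed the test in oligodendrocytes. There batch 4 stood at 66.2 CPM in Malat1 ASO, 63.6 in OTV:Malat1, 59.2 in the library labelled saline and 54.6 and 51.9 in anti-TfR:Malat1. The other batches stood at 33 to 38.7 in batch 1, 40.1 to 44.5 in batch 2 and 39.2 to 53.4 in batch 3. Only OTV:Malat1 replicate 2 of batch 3, at 53.4, reached into the batch 4 range, and the batch 1 animals lay below all others. In batch 1 the change was −0.34 ± 0.09 (edgeR, adjusted p = 0.0716), which did not pass where 0.714% of genes did. Those were 103 genes, and 9 to 344 with 1 library left out. Of 12255 genes with a mean of 3 or more CPM in this label, 1.52% likewise kept batch 1 apart from the other animals, above or below them, and 1.23% below them. The log2 change in batch 4 was 0.50 ± 0.07, or 1.41-fold (edgeR, adjusted p = 0.00317), against a background of 1.71% of 14419 genes. That background is 246 genes and ran from 6 to 1010 with 1 library left out. It passed in 17 of 17 fits with 1 library left out, at 0.49 (0.0333) without the library labelled saline replicate 4, and against batches 1, 2 and 3 taken singly (0.63, 0.50 and 0.37). Neuronal Nr1d2 in batch 4 stood at 41.7 to 52.8 CPM, below the oligodendrocyte value in 5 of 5 animals. Neuron markers in batch 4 oligodendrocytes stood at 6.42% to 10.7% of their neuron level against 4.5% to 8.16% in the other batches.

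The other 9 members did not pass the test in batch 4 oligodendrocytes. The values were Ciart 0.62 ± 0.18 (edgeR adjusted p = 0.073), Per3 0.34 ± 0.14 (0.175) and Tef 0.22 ± 0.07 (0.0903). Without the library labelled saline replicate 4 these 3 were 0.57, 0.28 and 0.23. Per2 differed by 0.28 ± 0.25, Nr1d1 by 0.19 ± 0.23, Clock by 0.07 ± 0.06, Cry1 by −0.16 ± 0.11 and Per1 by −0.29 ± 0.28, and Dbp was 0.999-fold. Without that library Per1 was −0.54 ± 0.31, Per2 −0.09 ± 0.25 and Nr1d1 0.30 ± 0.26, and Dbp was 0.08 ± 0.19. Ciart ran from 4.13 to 11.1 CPM in batch 4 and from 3.09 to 7.58 elsewhere. In neurons 0 of 10 members passed against a background of 9.83%, with 1 member, Nr1d2, below an unadjusted p of 0.05 (0.16 ± 0.06, edgeR adjusted p = 0.0923). In astrocytes 0 of 9 tested members passed, against a background of 0.0468%. Below an unadjusted p of 0.05 lay 2 of them, a level for which no share over all genes is given in any label. These were Tef at 0.39 ± 0.10 (edgeR adjusted p = 0.158) and Nr1d2 at 0.31 ± 0.12 (0.336), or 0.42 and 0.28 without that library. In microglia 0 of 6 passed with a background of 0.637%. Nr1d2 alone lay below an unadjusted p of 0.05, at 0.54 ± 0.18 (edgeR adjusted p = 0.178), or 0.34 ± 0.19 without the library labelled saline replicate 4. Vascular cells (4 members tested, background 0.0302%) and perivascular macrophages (1 member, Clock, background 0.0705%) gave 0 calls and no unadjusted p under 0.05. Vascular Nr1d2 differed by 0.61 ± 0.30 (unadjusted p = 0.0505, edgeR adjusted p = 0.644), a larger value than that of oligodendrocytes with a wider error, and by 0.59 ± 0.36 without the library labelled saline replicate 4. DESeq2 gave the same member counts as edgeR for batch 4 over all nuclei and in each label. Over all nuclei it tested 18059 genes in batch 4, and 5611 had an unadjusted p under 0.05.

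The difference between labels was tested within animals. The batch 4 shift of Nr1d2 in oligodendrocytes exceeded that in neurons by 0.32 ± 0.06 (edgeR interaction term, adjusted p = 0.107), which missed the threshold in a test that called 0.00495% of 20187 genes. With other size factors it was 0.35 (adjusted p = 0.0882), and without the library labelled saline replicate 4 it was 0.38 (0.206). Against neurons no member passed in oligodendrocytes, astrocytes (0.0497% called) or microglia (0.385% called).

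The deposited clusters show the same direction more finely. Of 18 clusters in which Nr1d2 could be tested, 18 had a positive batch 4 change, from 0.07 to 0.62, and 1 was called, the oligodendrocyte cluster 0 (0.52 ± 0.09, edgeR adjusted p = 0.0233). In that cluster 0.0769% of genes were called, and in 19 clusters together 2.21% of tests. Of 10430 genes tested in 14 or more clusters, 4.94% were higher in all of theirs and 8.41% lower in all. The 13 clusters made mostly of neurons had a median of 0.15, and the 3 made mostly of oligodendrocytes stood at 0.45 to 0.62. Without the library labelled saline replicate 4 the 18 changes were again positive, from 0.03 to 0.71, and 0 were called, where 3.34% of 10399 genes were higher in all. Clusters of 1 animal share a library and are not replicates. Tef was higher in 17 of 19 clusters and lower in 2, with and without that library, and none was called. An equal or larger share of clusters was higher for 14.3% of genes, and for 10.8% without that library. Per1 was lower in 13 of 18 clusters and higher in 5, and lower in 16 without it, and 32.7% and 15.8% of genes were lower in as large a share. Nr1d1 was higher in 9 of 14, and in 13 without it, a share that 8.59% of genes reached. Clock was higher in 11 of 19 and lower in 8. Per2 was higher in 11 of 16 and Ciart in 10 of 14, but in 4 of 15 and 6 of 14 without that library. Dbp was higher in 10 of 15, Per3 in 9 of 18 and Cry1 in 6 of 17. Over all animals, for these 5 and Clock, 34.2% to 62.7% of genes had a share of higher clusters as large or larger.

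**Figure D4:**
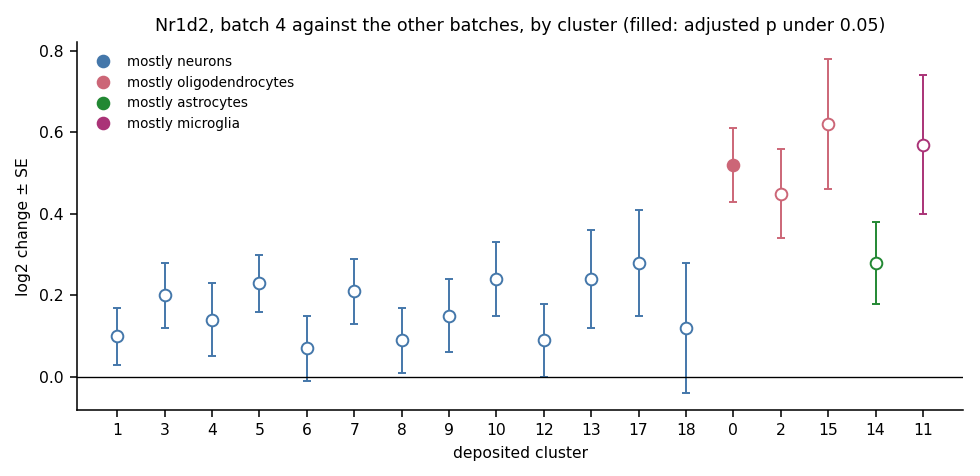
Log2 change of Nr1d2 in batch 4 against the other batches ± SE (vertical axis) in 18 deposited clusters (horizontal axis), coloured by the label most of their nuclei carry; filled points passed an adjusted p of 0.05. All 18 lie above 0, the oligodendrocyte clusters between 0.45 and 0.62.

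In batch 3, 3 of 10 members passed over all nuclei, where 21.5% of all genes did. Batches 3 and 4 differ in their member counts about as they do over all genes. Dbp stood in batch 3 at 14.2 CPM in OTV:Malat1, 10.4 in saline, 9.84 and 8.74 in anti-TfR:Malat1 and 9.01 in Malat1 ASO, and at 6.56 to 10.3 in the other 12 animals. It was higher by 0.36 ± 0.08 on the log2 scale (edgeR, adjusted p = 0.00445), and by 0.30 (adjusted p = 0.0195) without OTV:Malat1 replicate 2. Per3 was higher by 0.16 ± 0.04 (adjusted p = 0.0139), and Cry1 lower, at −0.29 ± 0.09 (adjusted p = 0.0383). The call of Cry1 was lost in 6 of 17 fits that left out 1 library, and that of Per3 in 1, without saline replicate 3. Per2 (−0.37 ± 0.15, adjusted p = 0.0958) did not pass.

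In neurons of batch 3 the calls were Dbp (0.33 ± 0.07, edgeR adjusted p = 0.00657), Per3 (0.14 ± 0.04, 0.0284) and Cry1 (−0.34 ± 0.10, 0.023), with 20.4% of genes called. Without OTV:Malat1 replicate 2 the change of Dbp was 0.28 (0.0327). Leaving out 1 library lost the call of Per3 in 6 of 17 fits and that of Cry1 in 3. In oligodendrocytes, with 17.2% called, Dbp rose by 0.67 ± 0.16 (edgeR adjusted p = 0.0119) and Clock fell, at −0.17 ± 0.06 (0.0482). Oligodendrocyte Dbp stood in batch 3 at 19.3 CPM in OTV:Malat1, 9.9 in saline, 12.7 and 6.9 in anti-TfR:Malat1 and 8.88 in Malat1 ASO, and at 4.36 to 9.68 in the other batches. Without that OTV:Malat1 animal the change was 0.51 (adjusted p = 0.0817) and no member passed in oligodendrocytes, where the genes called fell from 2484 to 897. Oligodendrocyte Cry1 differed by 0.03 ± 0.11 where neuronal Cry1 fell. The call of Clock was lost in 15 of 17 fits with 1 library left out. Whether labels differ in their batch 3 shift was not tested.

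Batch 1 gave 1 call over all nuclei, with 6.74% of genes called. Dbp was lower there, with saline at 8.01 CPM, Malat1 ASO at 6.92 and anti-TfR:Malat1 at 6.56, a change of −0.33 ± 0.10 (edgeR, adjusted p = 0.0487), lost in 13 of 17 fits with 1 library left out and kept without OTV:Malat1 replicate 1 or 2, Malat1 ASO replicate 3 or saline replicate 4. Cry1 (0.37 ± 0.11, adjusted p = 0.0536) and Per3 (−0.17 ± 0.05, 0.0561) lay just outside the threshold. Batch 2 gave 0 calls of 10 members, in a comparison that called 0.00468% of genes, and DESeq2 gave 0 as well. Below an unadjusted p of 0.05 lay 1 of them, Tef (−0.08 ± 0.04). DESeq2 tested 16816 genes in this comparison, and 1909 had an unadjusted p under 0.05. The 4 batch comparisons share animals and are not independent.

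**Figure D5:**
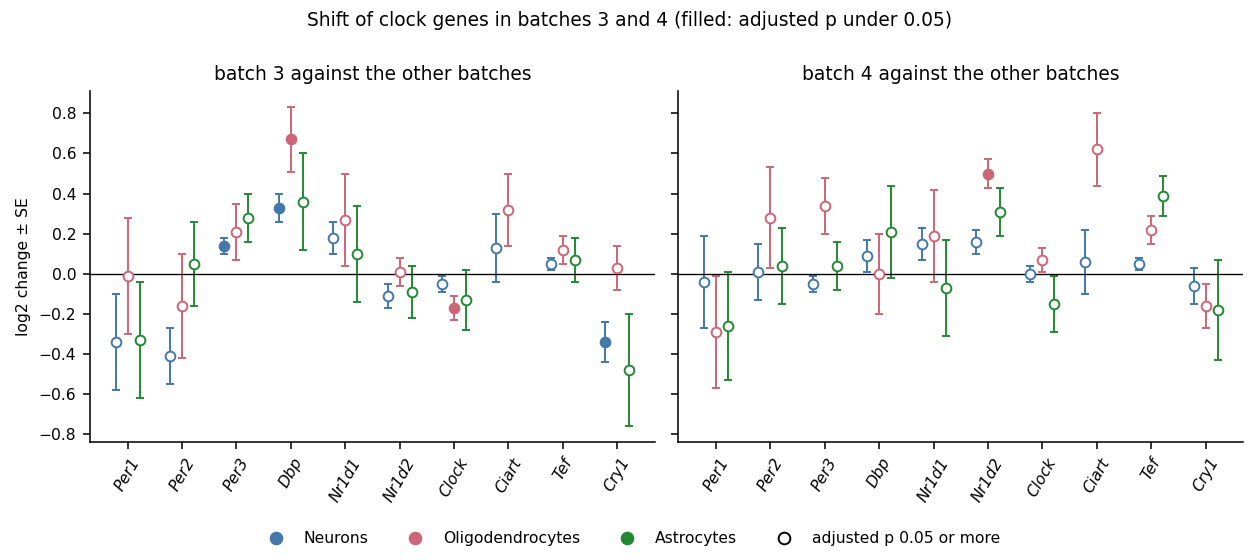
Log2 change ± SE (vertical axis) of each clock gene in batch 3 (left) and batch 4 (right) against the other batches, in neurons, oligodendrocytes and astrocytes; filled points passed an adjusted p of 0.05. Dbp is filled in batch 3 at 0.33 in neurons and 0.67 in oligodendrocytes, and Nr1d2 in batch 4 at 0.50 in oligodendrocytes alone.

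Among other genes of the clock, Rorb and Rora were higher in batch 4. Of 20 (BMAL1's gene Arntl, Npas2, Cry2, the Bhlhe and Ror genes and kinases of the loop among them), 2 rose, 0 fell and 18 did not pass in batch 4 over all nuclei, with a median of 0.04 against 0.01 for all genes. That share is near the 8.55% of all genes called there. Rorb, which encodes an activator acting on the NR1D element and also marks neurons of the middle cortical layers, stood at 221 to 251 CPM in the 5 batch 4 animals and 159 to 202 in the others, with no overlap. Batch 4 was apart from the other animals, above or below them, for 0.725% of 13382 genes with a mean of 3 or more CPM, and above them for 0.411%. Its change was 0.39 ± 0.05 (edgeR, adjusted p = 0.00481), and 0.39 (0.0337) without the library labelled saline replicate 4. In neurons it was 0.42 ± 0.05 (0.00208), or 0.42 (0.0174) without that library, and no library left out ended either call. In batch 1 Rorb was lower, at −0.29 ± 0.06 over all nuclei (0.0164) and −0.35 ± 0.07 in neurons (0.0163), both lost without anti-TfR:Malat1 replicate 1 or Malat1 ASO replicate 1. Rora, its close relative, rose in batch 4 by 0.18 ± 0.05 (0.0422), a call lost in 14 of 17 fits with 1 library left out, that saline library among them (0.16, 0.153). In neurons Rora was 0.16 ± 0.04 (0.0326), lost in 7 of 17 and at 0.15 (0.122) without that library. Cortical marker RNA in neurons was 383 to 470 CPM in batch 4 and 380 to 478 in the other batches. That sum does not show the share of middle-layer neurons, which was not tested by batch. In batch 4 oligodendrocytes, where 1.71% of genes were called, Cry2, the partner repressor of Cry1, rose by 0.33 ± 0.07 (0.0407). That call was lost in 11 of 17 fits, and the change was 0.34 (0.151) without that library. Cry2 was named after its value was seen. In batch 3 over all nuclei 1 of 20 passed, Bhlhe41 at 0.19 ± 0.06 (0.0287), where 21.5% of all genes did. In neurons it was 0.20 ± 0.06 (0.0284), and both calls were lost in 6 of 17 fits. In batch 3 oligodendrocytes Bhlhe40 rose by 0.34 ± 0.11 (0.0446), where 17.2% of genes were called, and lost its call in 13 of 17 fits.

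Signals known to induce Per1 were looked at through their other targets. Of 12 glucocorticoid-induced genes, 0 rose, 1 fell and 11 did not pass in batch 4 over all nuclei, with a median of −0.19, where 8.55% of all genes were called. The one that fell was the cell cycle inhibitor Cdkn1a, at −0.73 ± 0.22, named after its value was seen. The call was lost in 14 of 17 fits with 1 library left out, and without the library labelled saline replicate 4 the change was −0.90 (edgeR adjusted p = 0.0748). In neurons it was again the one call of the 12 in batch 4 (−0.81 ± 0.24, 0.0424), lost in 12 of 17 fits. In batch 3, which holds the animal with the lowest Per1, 0 of the 12 passed over all nuclei, but 2 rose and 0 fell in neurons, where 20.4% of all genes were called and the median of the list was 0.13. These were Tsc22d3 (0.39 ± 0.11, edgeR adjusted p = 0.0202) and Nfkbia (0.39 ± 0.13, 0.039), both named after their values were seen. The call of Tsc22d3 was lost in 4 of 17 fits with 1 library left out and that of Nfkbia in 12. In batches 1 and 2 none of the 12 passed over all nuclei or in neurons. In astrocytes none of those tested passed in any batch. In batch 2 astrocytes Zbtb16 was 0.67 ± 0.17 (edgeR adjusted p = 0.182), Tsc22d3 0.56 ± 0.16 (0.357) and Sgk1 0.80 ± 0.25 (0.5). Pdk4 (−0.44 ± 0.28) and Errfi1 (−0.14 ± 0.30) were lower there. These were named after their values were seen. Of 10 genes induced by neuronal activity 0 passed in batch 4 over all nuclei, with a median of −0.08, and 0 passed in the other batches or in neurons. Their part in the spread of Per1 was not tested.

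The genes most like Dbp across the 17 animals over all nuclei, among 9778 genes of 10 or more CPM, were Mrpl45 (r = 0.88), Trim32 (0.86), Scp2 (0.85), Gpcpd1 (0.84) and Actr6 (0.84). Within batches their r lay between 0.68 and 0.90. Most opposite were Map4k3 (−0.78), Eml4 (−0.75), Med13l (−0.74), Zfp277 (−0.74) and Atp8a1 (−0.72), with −0.77 to −0.32 within batches. All values of an animal share its library and depth, and these r are descriptions chosen as the extremes of many. Whether they rest on OTV:Malat1 replicate 2, the highest library for Dbp, was not tested.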

How the data were processed

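Single-nucleus RNA was counted by the authors with Cell Ranger 6.0.1 against mm10 and handled in Seurat 4, per the submitters' processing notes; the deposited values are raw UMI counts per gene and nucleus, with the authors' labels, clusters, doublet calls and batches. The deposited nuclei hold at least 500 UMIs and at most 4500 genes. For every animal, counts were added up across all its nuclei and within each label with 20 or more nuclei in every animal; the label Glia (225 nuclei) was too small. Nuclei called doublets (16.8%) stayed in, and 7.16% of nuclei carry a barcode seen in 2 or more libraries. Genes were filtered by filterByExpr, scaled by TMM and tested with edgeR 4.0.16 (glmQLFit, glmQLFTest; R 4.3.3), two-sided, with Benjamini-Hochberg adjustment over all genes tested and a threshold of 0.05. Treatment comparisons used a model of treatment alone, and batch comparisons a model of batch and treatment. Log2 changes are those of edgeR's fit; levels are CPM without TMM. Differences of shifts between labels came from a model over both labels with the animal as a term.

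Correlations used 100000 permutations, and no p-value was computed for the r within batches. Members are 10 genes, the other clock genes, induced genes and markers were lists, and all were chosen with earlier results of these data known. Named by rule beyond the members were other clock genes past the threshold in batch 4 over all nuclei. The 5 genes most and least like Dbp were also named by rule. Npas2, Cry2, Bhlhe40, Bhlhe41, Cdkn1a, Tsc22d3, Nfkbia, Zbtb16, Sgk1, Pdk4 and Errfi1 were named after their values were seen. Alternatives included DESeq2 1.42.0, other size factors, filters, blocks and leaving out each animal. The edgeR fits were tested on simulated data: for batch 4 over all nuclei 65% of genes changed by 0.5 and 99% of those changed by 1 on the log2 scale were recovered, and in oligodendrocytes 80.5% and 99.5%. Those counts held no other differences between batches or treatments, and only genes of higher counts were changed. The shares can thus be too high for the real data and do not cover members of few UMIs. At a change of 0.5, 8% of the calls in oligodendrocytes were false and 4.41% of those over all nuclei. Promoter windows are from RefSeq. Not every result of the other clock genes is reported here. Shares over all genes are descriptions over genes of 3 or more CPM on average or, for clusters, tested in 14 or more.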

Additional observations from a re-analysis of the deposited data

Results flagged for a closer look

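In 2 of 90 groups examined, 1 animal stood far from the other animals of its treatment group, and chance flags about 1 in 20 groups. Nr1d2 over all nuclei was 54.8 CPM in Malat1 ASO replicate 4 of batch 4, while the other 3 Malat1 ASO animals lay between 40.7 and 42.9. Cry1 in oligodendrocytes was 13.8 CPM in Malat1 ASO replicate 2 of batch 2, below the 15.8 to 16 of the other 3.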

How the results depend on the processing

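Of 3150 refits of single members, 0 turned a called change round, 72 lost a call, 22 gained one, and 176 changed the sign of a value that was called in neither fit. No treatment comparison gave a member call under DESeq2, other size factors, Malat1 left out, no filter, batch as a block, only the 2 groups compared, no doublets, nuclei of 1000 or more UMIs or, over all nuclei, any animal left out, and with the replicate block the count was 0 too. Same-numbered animals correlated between −0.46 and 0.72 in their deviations (median 0.05), with 9 of 21 pairs over 0.1, and 9 of 15 animals correlated best with their own number. Pairs within a batch had a median r of 0.44 and pairs of different batches −0.15, and 14 animals correlated best within their batch. In saline and Malat1 ASO the number equals the batch. Whether the title numbers pair animals beyond the batch was not tested. In batch 4 against the other batches over all nuclei, member calls went from 1 to 0 with no filter and against batch 1 or batch 2 alone, and ranged from 0 to 1 with an animal left out. In neurons they went from 0 to 2 against batch 3 alone, and ranged from 0 to 1. In oligodendrocytes they went from 1 to 2 with no filter, and ranged from 1 to 2. Batch 1 calls went from 1 to 3 with DESeq2 or no treatment term, to 2 with nuclei of 1000 or more UMIs, and to 0 with other size factors, Malat1 left out, no filter or no doublets, and ranged from 0 to 2. Batch 3 calls ranged from 1 to 4 over all nuclei and in neurons, 1 without saline replicate 3. In batch 3 oligodendrocytes the 2 calls became 1 with DESeq2, other size factors, Malat1 left out, no filter, no doublets or without cluster 13, and 0 with nuclei of 1000 or more UMIs, and ranged from 0 to 2. Correlated pairs of labels numbered 3 to 5. Of the other genes named, Rora in batch 4 over all nuclei lost its call with other size factors (0.18, adjusted p = 0.0533). Calls of Cry2 in oligodendrocytes (0.30, 0.0641) and Nfkbia in neurons (0.35, 0.0607) were lost with nuclei of 1000 or more UMIs. Those of Cdkn1a (−0.70, 0.06; in neurons −0.76, 0.0563) and Bhlhe41 (0.17, 0.0953; in neurons 0.18, 0.109) were lost without doublets. That of Bhlhe40 was lost with DESeq2 (0.34, 0.104), no filter (0.35, 0.0918), nuclei of 1000 or more UMIs (0.40, 0.0633) and without cluster 13 (0.35, 0.0569). The causes were not tested. Calls over all genes in batch 4 went from 1828 to 3009 with DESeq2 and between 189 (without saline replicate 4) and 2693 with an animal left out, in batch 4 oligodendrocytes from 246 to 617 with DESeq2, between 45 and 918 over DESeq2 and the other settings and with an animal left out to between 6 (without saline replicate 4) and 38 in 11 of 17 fits but to 380, 595 and 1010 without OTV:Malat1 replicate 1, anti-TfR:Malat1 replicate 6 and anti-TfR:Malat1 replicate 1, in batch 4 neurons from 2056 to 474 without saline replicate 4 and 481 without OTV:Malat1 replicate 3, in batch 1 from 1440 to 2270 with DESeq2 and to 464 without saline replicate 1, in batch 2 from 1 to 103 with DESeq2, in batch 3 from 4604 to 2598 and in its neurons from 4274 to 2508 without saline replicate 3, and in its oligodendrocytes from 2484 to 897 without OTV:Malat1 replicate 2. Alternatives for batch 3 in labels and for genes that are no members, those without saline replicate 4 in the rarer labels and clusters, and those of batches 1 to 3 beyond the test, scaling and filter, were chosen after seeing the data. The fit to nuclei of 1000 or more UMIs was not run in vascular cells and perivascular macrophages, where animals had too few nuclei. Few UMIs left 4 of the 10 members testable in vascular cells and 1 in perivascular macrophages.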
